A study of Homo sapiens with 6 samples.

Results

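The platelet-derived growth factor (PDGF) system was followed by 7 genes, of which 4 encode ligands (PDGFA, PDGFB, PDGFC and PDGFD), 2 encode receptors (PDGFRA and PDGFRB) and 1 encodes a receptor-like protein (PDGFRL). The genes were listed by name, and each was read from its only probe set with 1 gene symbol. The list was drawn up with earlier results of these data known, so the choice was not blind to them. All 7 were found among the 18417 genes of the arrays. The arrays number 6 and come from 3 human cell lines of nearly the same genotype, with 2 arrays per line. The labels call them replicates and the study calls them biological replicates, so p-values measure the spread between these arrays. The arrays labelled BJELM hold cells that carry hTERT, the SV40 early region and MYC fused to an estrogen receptor domain, and that were grown with G-418, hygromycin, puromycin and, continuously, 4-hydroxytamoxifen (4-OHT), the ligand that switches the fusion on. BJEL cells carry hTERT and the SV40 early region, which encodes the large T and small t antigens, and were grown with G-418 and hygromycin. BJ cells are primary foreskin fibroblasts with none of these genes or additions. All 3 lines were kept in DMEM/M199 with fetal calf serum, which itself contains PDGF, and the antibiotics and 4-OHT cannot be told apart from the introduced genes.

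PDGFs are dimeric growth factors for cells of mesenchymal origin, and have long been studied as the mitogen that serum holds for fibroblasts. A dimer brings 2 receptor chains together, the receptors phosphorylate each other on tyrosine, and proteins with SH2 domains dock on these sites and signal through PI3-kinase, RAS and phospholipase C-gamma. PDGF receptor alpha binds PDGF-A, PDGF-B and PDGF-C chains, whereas PDGF receptor beta binds PDGF-B and PDGF-D chains. PDGF-C and PDGF-D leave the cell as latent factors that proteases activate outside it.

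Values are log2 probe set signals, so that a difference of 1 stands for a 2-fold change, and the words rose and fell are kept for genes that passed limma at an adjusted p under 0.05 and also changed 2-fold or more. Differences are given ± SE, from n = 2 arrays per line. Signals of different probe sets cannot be compared with each other, since each has its own probes. The labels were checked with the introduced genes. TERT had signals of 10.84 and 10.78 on the arrays labelled BJELM, 10.71 and 10.97 in BJEL and 7.77 and 7.88 in BJ. MYC had signals of 9.57 and 8.90 on the arrays labelled BJELM, 10.22 and 10.12 in BJEL and 9.47 and 9.61 in BJ. The MYC signal was thus not above that of BJEL or BJ on the arrays labelled BJELM, which does not show the added MYC of the label. Every direction drawn from that label is therefore a difference between the arrays so labelled. Whether the probes of this set read the introduced fusion transcript is not known from the files. The study's own list likewise gives MYC a lower ratio to BJ in BJELM than in BJEL. It reports a western blot with overexpressed MYC-ER at the tumorigenic step, and TRAIL-induced apoptosis in BJELM cells only. These assays, and its RT-qPCR of introduced MYC, were not analysed here. Fibroblast markers, 12 in number, were read in the lines, all of them at or above the median gene level of 7.26 in their mean over the 6 arrays. That mean includes BJ, and not every marker reached this level in each line. FAP had means of 6.65 on the arrays labelled BJELM, 6.16 in BJEL and 9.61 in BJ, and DCN had 6.19, 7.19 and 10.21. Array medians lay between 6.37 and 6.46, and the correlation across genes was 0.992 to 0.995 within lines and 0.943 to 0.981 between lines.

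Both receptor genes were lower in the derived lines, PDGFRA by 10.4-fold to 11.9-fold and PDGFRB by 2.75-fold to 4.00-fold. PDGFRA encodes PDGF receptor alpha, a tyrosine kinase of the class III family and a marker of many fibroblasts. Its signals were 5.22 and 5.06 on the arrays labelled BJELM, 4.88 and 5.01 in BJEL and 8.55 and 8.49 in BJ. Every array of the derived lines was at least 3 log2 units below both BJ arrays, and the arrays labelled BJELM lay just above the BJEL arrays. PDGFRA fell in BJEL relative to BJ, with a log2 difference of -3.57 ± 0.098 (limma, adjusted p = 7.81e-05), that is 11.9-fold with a 95% interval of 10.1-fold to 14.0-fold. The signal that was left in BJEL was 8.40% of that in BJ. Whether the signals of the derived lines lay above background was not tested, so the folds, percentages and ranks of PDGFRA describe the probe set signal and not the amount of transcript. On the arrays labelled BJELM it fell to 9.60% of the BJ signal, with a log2 difference of -3.38 ± 0.098 (limma, adjusted p = 5.74e-05). Between the arrays labelled BJELM and BJEL the difference was 0.19 ± 0.098 (limma, adjusted p = 0.291), with a 95% interval from -0.05 to 0.43. In these bulk samples fewer cells that express a gene and less RNA per cell cannot be told apart.

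PDGFRB encodes PDGF receptor beta, the receptor through which PDGF-B acts on fibroblasts and on the mural cells of vessels. Its signals were 9.25 and 8.66 on the arrays labelled BJELM, 9.50 and 9.48 in BJEL and 11.10 and 10.81 in BJ. The 3 lines did not overlap, with BJ highest, and the arrays labelled BJELM were the most spread. A second probe set, annotated to both PDGFRB and EBF1, was not used, and which of the 2 genes it reads cannot be told. Its signals were 6.29 and 5.97 on the arrays labelled BJELM, 7.30 and 6.59 in BJEL and 6.37 and 6.19 in BJ. Its BJEL arrays were thus above both BJ arrays, the opposite direction. PDGFRB fell in BJEL to 36.3% of the BJ signal (log2 difference -1.46 ± 0.20, limma, adjusted p = 0.00602). It fell on the arrays labelled BJELM to 25.0% of the BJ signal (log2 difference -2.00 ± 0.20, limma, adjusted p = 0.00119), a 4.00-fold change with a 95% interval of 2.84-fold to 5.64-fold. The arrays labelled BJELM stood -0.54 ± 0.20 from BJEL (limma, adjusted p = 0.165), which did not pass the test. With the replicate block, that is with arrays of the same number taken as pairs, the adjusted p by limma was 0.0248 at the same difference, which stayed under the 2-fold minimum.

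PDGFRL encodes a secreted protein related to the extracellular part of the receptors, without a kinase. Its signals were 6.79 and 6.65 on the arrays labelled BJELM, 7.12 and 6.62 in BJEL and 6.43 and 6.42 in BJ. All 4 arrays of the derived lines were above both BJ arrays, yet the BJEL arrays lay 0.50 log2 units apart and no comparison was called. The log2 difference was 0.30 ± 0.17 for the arrays labelled BJELM (limma, adjusted p = 0.271) and 0.45 ± 0.17 for BJEL (limma, adjusted p = 0.132, and 0.0311 with the replicate block), both against BJ. Between the arrays labelled BJELM and BJEL it was -0.15 ± 0.17 (limma, adjusted p = 0.651), and without BJEL replicate 1 it had the opposite sign (0.10).

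**Figure D1:**
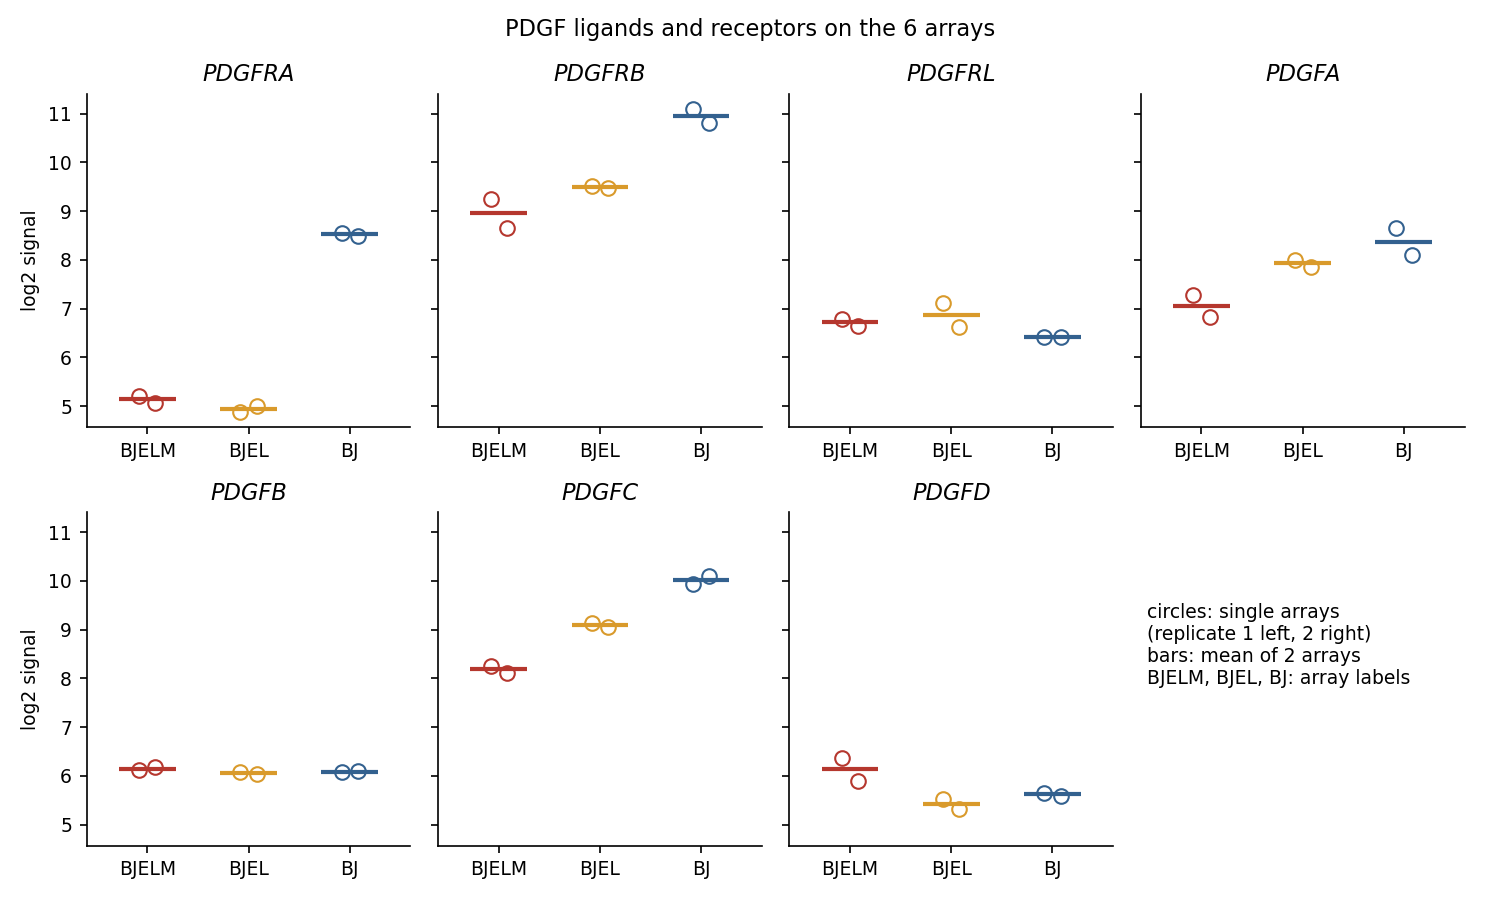
Log2 signal (vertical axis) of the 7 PDGF genes by cell line (horizontal axis), where circles are single arrays, with replicate 1 on the left, and bars are the means of 2 arrays. PDGFRA lies at 4.88 to 5.22 in both derived lines against 8.49 and 8.55 in BJ, PDGFC and PDGFRB fall into 3 levels, and PDGFB stays between 6.04 and 6.18 on all arrays.

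The start regions of both receptor genes are shown because these genes fell together in both derived lines. They were taken from RefSeq on GRCh38.p14 and run from 250 bases before to 50 bases after an annotated start. PDGFRA has 2 such windows on the plus strand of chromosome 4, at chr4:54229043-54229342 and chr4:54233710-54234009, and PDGFRB has 1 on the minus strand of chromosome 5, at chr5:150155796-150156095. Capitals mark matches on either strand to 4 short motifs, which are the E-box CACGTG, which MYC can bind, the motif CCAAT, the Sp1 core GGGCGG, printed as CCGCCC where it lies on the other strand, and the TATA box TATAAA. No 2 matches overlapped in these windows.
PDGFRA, first window: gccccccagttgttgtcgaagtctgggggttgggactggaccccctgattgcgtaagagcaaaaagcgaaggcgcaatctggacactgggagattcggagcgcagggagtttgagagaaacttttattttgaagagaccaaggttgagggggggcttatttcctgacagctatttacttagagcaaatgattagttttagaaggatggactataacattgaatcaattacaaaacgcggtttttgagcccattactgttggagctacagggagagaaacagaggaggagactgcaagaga
PDGFRA, second window: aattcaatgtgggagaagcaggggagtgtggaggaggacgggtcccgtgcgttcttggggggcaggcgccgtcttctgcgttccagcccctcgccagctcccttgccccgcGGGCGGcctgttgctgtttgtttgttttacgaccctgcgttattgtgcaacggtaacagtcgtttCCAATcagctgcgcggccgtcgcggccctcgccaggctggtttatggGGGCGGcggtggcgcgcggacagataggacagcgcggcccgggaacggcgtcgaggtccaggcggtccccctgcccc
PDGFRB: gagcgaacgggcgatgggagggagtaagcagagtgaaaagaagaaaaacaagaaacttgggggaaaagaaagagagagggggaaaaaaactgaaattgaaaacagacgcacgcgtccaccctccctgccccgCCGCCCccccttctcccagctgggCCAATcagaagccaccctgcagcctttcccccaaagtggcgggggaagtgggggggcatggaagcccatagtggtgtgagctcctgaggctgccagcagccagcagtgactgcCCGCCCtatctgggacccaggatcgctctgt

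The first PDGFRA window held none of the 4 motifs and had a GC content of 47.0%. The second PDGFRA window, with a GC content of 66.7%, held 1 match to CCAAT and 2 matches to GGGCGG. The PDGFRB window, with a GC content of 59.3%, held the same motifs in the same numbers. For comparison, the median GC content of all 35116 windows was 58.7%, and CCAAT was found in 34.6% of them, GGGCGG in 45.0%, CACGTG in 7.26% and TATAAA in 11.5%. Windows were read for members off chromosome 8, which leaves out PDGFRL. The 4 members whose windows were read, PDGFRA, PDGFRB, PDGFA and PDGFD, had 8 in all. Of these 7 held GGGCGG, 3 held CCAAT and 0 held CACGTG or TATAAA. PDGFA alone had 4 of the 8 windows, each with GGGCGG. A match describes the letters of a window and is not a measured binding site.

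The ligand genes PDGFC and PDGFA were lower on the arrays labelled BJELM than in BJ. PDGFC encodes PDGF-C, a ligand of PDGF receptor alpha that is activated outside the cell. Its signals were 8.26 and 8.11 on the arrays labelled BJELM, 9.13 and 9.06 in BJEL and 9.94 and 10.09 in BJ. The lines formed 3 levels about 0.9 log2 units apart, with no overlap and with replicates within 0.16 of each other. PDGFC fell on the arrays labelled BJELM to 28.1% of the BJ signal (log2 difference -1.83 ± 0.10, limma, adjusted p = 0.000214). Each of the intermediate steps passed the adjusted p and stayed under the 2-fold minimum. BJEL stood at -0.92 ± 0.10 from BJ (limma, adjusted p = 0.00300), and the arrays labelled BJELM stood at -0.91 ± 0.10 from BJEL (limma, adjusted p = 0.00588).

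PDGFA encodes PDGF-A, a ligand whose homodimer binds receptor alpha and not receptor beta. Its signals were 7.28 and 6.83 on the arrays labelled BJELM, 8.0 and 7.86 in BJEL and 8.65 and 8.09 in BJ. The arrays labelled BJELM were below all others, and the lower BJ array was only 0.09 log2 units above the higher BJEL array. PDGFA fell on the arrays labelled BJELM to 40.2% of the BJ signal (log2 difference -1.31 ± 0.22, limma, adjusted p = 0.00702). Against BJEL these arrays stood at -0.87 ± 0.22 (limma, adjusted p = 0.0602), and BJEL stood at -0.44 ± 0.22 from BJ (limma, adjusted p = 0.248), neither past the test. With the replicate block the adjusted p by limma was 0.00209 against BJEL and 0.0236 for BJEL against BJ, both with differences under the 2-fold minimum. The call against BJ held with any one array left out, with log2 differences from -1.59 to -1.04.

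PDGFB and PDGFD, the ligands of receptor beta, were called in no comparison. PDGFB, the human counterpart of the viral oncogene v-sis, had signals of 6.12 and 6.18 on the arrays labelled BJELM, 6.07 and 6.04 in BJEL and 6.07 and 6.10 in BJ. These 6 signals spanned only 0.14 log2 units. The difference from BJ was 0.06 ± 0.080 on the arrays labelled BJELM (limma, adjusted p = 0.659), with a 95% interval from -0.13 to 0.26, and -0.03 ± 0.080 in BJEL (limma, adjusted p = 0.849), with a 95% interval from -0.23 to 0.16. PDGFD had signals of 6.36 and 5.90 on the arrays labelled BJELM, 5.53 and 5.32 in BJEL and 5.66 and 5.60 in BJ. Its arrays labelled BJELM were above the other 4 arrays by 0.24 log2 units or more. The difference was 0.71 ± 0.17 against BJEL (limma, adjusted p = 0.0473, under the 2-fold minimum) and 0.51 ± 0.17 against BJ (limma, adjusted p = 0.0700, and 0.00840 with the replicate block). The first of these rested on the arrays used, since without BJELM replicate 1 it was 0.48 (limma, adjusted p = 0.0903). PDGFB and PDGFD had means over the 6 arrays below the median gene level, as did PDGFRA and PDGFRL, and the files hold no detection call for such probe sets.

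Counted over the family, 2 of 7 members fell in BJEL relative to BJ and 4 of 7 fell on the arrays labelled BJELM relative to BJ. Of all genes tested, 2.29% fell in BJEL, and 4.7% fell on the arrays labelled BJELM. No member rose in either comparison, where 2.89% and 4.09% of all genes rose, and at an unadjusted p under 0.05 by limma 1 member was higher in each. Between the arrays labelled BJELM and BJEL 0 members rose and 0 fell, while 0.923% of all genes rose and 1.76% fell. At an unadjusted p under 0.05 by limma, 1 member was higher and 3 were lower there, and by the methods' t-test 0 were called. The median log2 difference of the 7 members was -1.31 on the arrays labelled BJELM and -0.44 in BJEL, each against BJ, with -0.15 between the arrays labelled BJELM and BJEL. Over all genes these medians were 0.01, -0.02 and 0.03. The 2 comparisons with BJ share the BJ arrays.

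**Figure D2:**
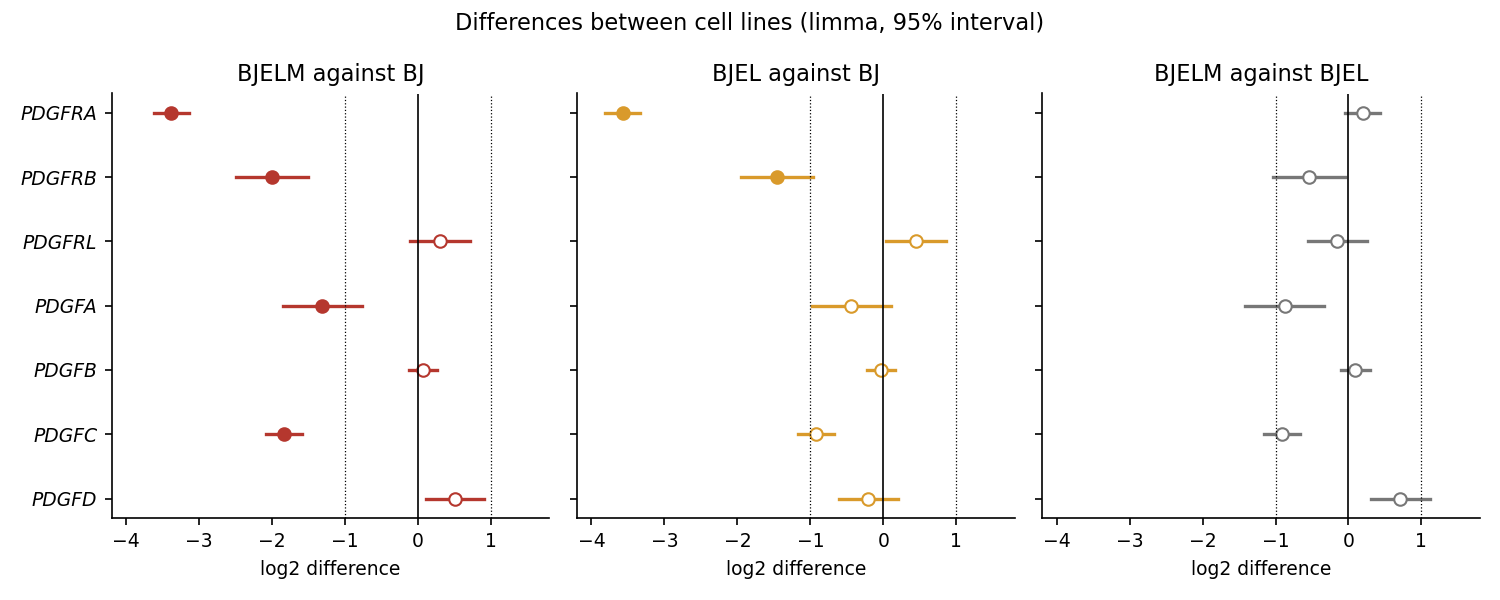
Log2 difference (horizontal axis) of each PDGF gene (vertical axis) in the 3 comparisons, with limma's 95% interval, where filled points are called and dotted lines mark a 2-fold change. PDGFRA and PDGFRB are called in both comparisons with BJ, PDGFA and PDGFC on the arrays labelled BJELM against BJ, and no member is called between the arrays labelled BJELM and BJEL.

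The receptor genes were set beside 51 other receptor tyrosine kinase genes that were measured of 56 listed. Their median log2 difference was -0.08 on the arrays labelled BJELM and -0.10 in BJEL, both against BJ. In BJEL 0 of the 51 had a lower value than PDGFRA, and 1 had a lower value than PDGFRB. Against this, 1 of the 51 was lower than each receptor on the arrays labelled BJELM, and this was FLT1, the gene of VEGF receptor 1. FLT1 had signals of 6.21 and 5.81 on the arrays labelled BJELM, 8.22 and 8.07 in BJEL and 10.09 and 9.99 in BJ, and fell in all 3 comparisons, with a log2 difference of -4.03 on the arrays labelled BJELM against BJ (limma, adjusted p = 8.37e-05). Over all 18417 genes, 40 (0.217%) had a lower log2 difference than PDGFRA on the arrays labelled BJELM, and 17 (0.0923%) had one in BJEL. Some of the 51 had low mean signals already in BJ, such as FLT3 (5.17), KDR (5.10) and MUSK (4.81). These genes had little room to fall, whereas others, such as FLT1 (10.0), had more. The ranks and list medians therefore also depend on the signal level in BJ.

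In BJEL 0 of the 51 rose and 2 fell (3.92%, against 2.29% of all genes), FLT1 and IGF1R, the gene of the IGF-1 receptor, which fell by 1.39 on the log2 scale (limma, adjusted p = 0.00269). At an unadjusted p under 0.05, 6 were higher there and 14 lower. On the arrays labelled BJELM 0 of 51 rose and 4 fell against BJ (7.84%, against 4.7% of all genes), with EPHA4, an ephrin receptor gene (-1.73), KIT (-1.21) and IGF1R (-1.19) besides FLT1. Against BJEL 0 rose and 3 fell (5.88%, against 1.76% of all genes), FLT1 (-2.14), KIT (-2.00) and EPHA4 (-1.23). The count against BJEL was 5 without BJEL replicate 2, with the kinase genes ROR1 (-1.03) and ROR2 (-1.14) added, 4 without BJELM replicate 1 and 2 without BJEL replicate 1 or BJELM replicate 2. Against BJ 1 gene, EPHB4, had risen without BJ replicate 2 (1.10) or without BJELM replicate 2 (1.01). DDR2, another gene of this list, was called as lower against BJ without BJ replicate 2 (-1.05) or without BJELM replicate 1 (-1.08). At an unadjusted p under 0.05 the list had 5 higher and 19 lower genes on the arrays labelled BJELM against BJ, and 4 higher and 11 lower against BJEL. The methods' t-test called 0 risen in each comparison. KIT, which encodes the stem cell factor receptor, lost both of its calls with 1 array left out. Its difference from BJ was then -0.90 without BJ replicate 1 and -0.92 without BJELM replicate 2. Its difference from BJEL was -1.69 without BJEL replicate 1 and -1.71 without BJELM replicate 2. KIT replicate 1 was above replicate 2 for BJ (7.39 and 6.78), BJEL (8.20 and 7.56) and BJELM (6.17 and 5.59). These fits had no replicate block, so leaving out 1 array also moves the KIT difference by that shift. The lost calls therefore do not show that the KIT difference varied between replicate numbers.

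**Figure D3:**
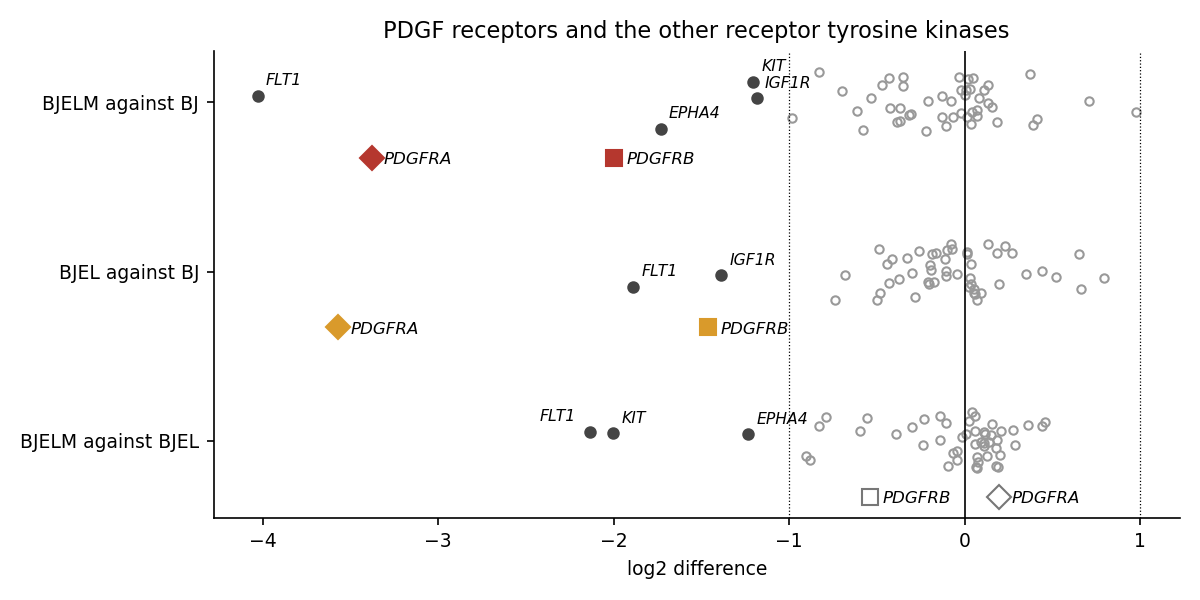
Log2 difference (horizontal axis) of PDGFRA (diamonds), PDGFRB (squares) and 51 other receptor tyrosine kinase genes (circles, spread vertically for legibility) in the 3 comparisons (vertical axis), where filled symbols are called and dotted lines mark a 2-fold change. PDGFRA lies left of all circles in BJEL against BJ and right of FLT1 alone on the arrays labelled BJELM against BJ.

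In the fit without a replicate block, none of the genes beside the receptors on their chromosomes passed the test in BJEL. In the RefSeq gene order the nearest measured genes are GSX2 and KIT on either side of PDGFRA, and CSF1R and CDX1 on either side of PDGFRB. KIT, CSF1R and FLT3 are the other class III receptor genes. KIT had signals of 6.17 and 5.59 on the arrays labelled BJELM, 8.20 and 7.56 in BJEL and 7.39 and 6.78 in BJ. In BJEL, where PDGFRA was at its lowest, both KIT arrays were above the BJ arrays of the same replicate number. The log2 difference of 0.80 ± 0.31 did not pass the test (limma, adjusted p = 0.146) and was under the 2-fold minimum. This SE includes the shift between KIT replicates 1 and 2, which had the same direction in every line. The missing call therefore does not show that KIT was unchanged in BJEL. GSX2, a homeobox gene, had signals of 7.13 to 7.46 on all 6 arrays. CSF1R, the gene of the receptor for colony stimulating factor 1, lay between 5.79 and 6.12, with -0.16 ± 0.11 in BJEL against BJ (limma, adjusted p = 0.378). CDX1, another homeobox gene, lay between 6.99 and 7.26. FLT3, which is not a neighbour, lay between 5.08 and 5.29, and none of CSF1R, CDX1, GSX2 and FLT3 passed any comparison.

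The genes with the profiles nearest to those of the called members were found by the root mean square distance over the 6 arrays after each gene was centred on its own mean. For PDGFRA the nearest was FBLN5, which encodes fibulin 5, a protein of elastic fibers, at a distance of 0.0485 log2 units (Pearson r = 0.9996, n = 6 arrays). FBLN5 had signals of 8.59 and 8.37 on the arrays labelled BJELM, 8.32 and 8.43 in BJEL and 11.94 and 11.81 in BJ. The next were SBSPON, which encodes a secreted protein with somatomedin B and thrombospondin domains (distance 0.164), and RDH10, the gene of a retinol dehydrogenase (distance 0.172). For PDGFRB they were ADAMTS2, the gene of a procollagen N-proteinase (0.0825), TRIM2, a ubiquitin ligase gene (0.0864), and WNT5A, a ligand gene of the WNT family (0.0998).

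For PDGFC the nearest profiles were those of CSF1, which encodes colony stimulating factor 1 (0.0686), MITF, a transcription factor gene (0.0751), and GRAMD1B, a sterol transfer protein gene (0.0907). CSF1 had signals of 8.44 and 8.24 on the arrays labelled BJELM, 9.48 and 9.30 in BJEL and 10.19 and 10.31 in BJ, and so had 3 levels as PDGFC did. For PDGFA they were TESK1, a kinase gene (0.0510), PTER, the gene of a phosphotriesterase-related protein (0.0680), and CAPN1, the gene of calpain 1 (0.0857). Over these 12 genes the Pearson correlation with the member was between 0.990 and 0.9996. The 6 points share the 3 lines and their normalization, so the correlations are descriptions.

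**Figure D4:**
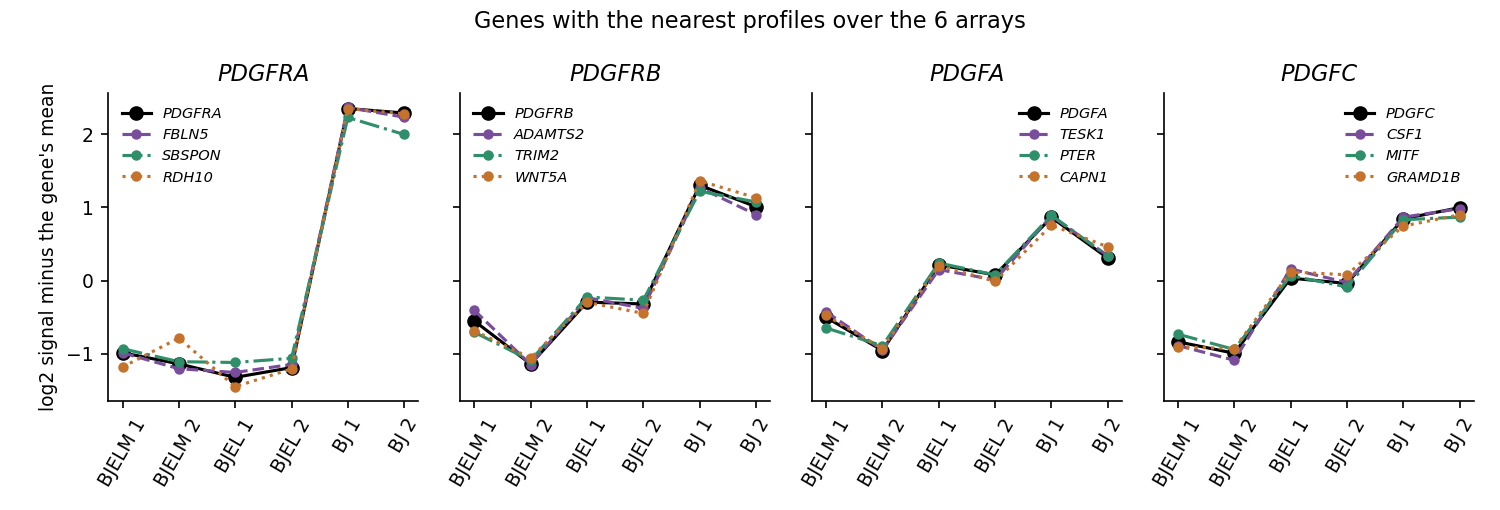
Log2 signal minus the mean of the gene (vertical axis) on each of the 6 arrays (horizontal axis) for PDGFRA, PDGFRB, PDGFA and PDGFC (black) and for the 3 genes nearest to each (colored). FBLN5 follows PDGFRA within a root mean square distance of 0.0485 log2 units, and CSF1 has the 3 levels of PDGFC.

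Proteases that process or activate the ligands were taken next. Of 7 measured genes 0 rose and 0 fell in BJEL against BJ, with 0 higher and 1 lower at an unadjusted p under 0.05. Against BJ 0 rose and 2 fell on the arrays labelled BJELM (28.6%, beside 4.7% of all genes). These were FURIN, a proprotein convertase that cleaves the precursor of PDGF-A (-1.06, limma, adjusted p = 0.00126), and PLAU, the urokinase that activates PDGF-D (-1.03, limma, adjusted p = 0.0174). FURIN had signals of 8.05 and 7.92 on the arrays labelled BJELM, 8.62 and 8.51 in BJEL and 9.15 and 8.94 in BJ. Both lay near the 2-fold minimum and lost their calls without BJELM replicate 2 (-0.997 for FURIN and -0.90 for PLAU), FURIN also without BJ replicate 1 (-0.96) and PLAU also without BJ replicate 2 (-0.89). PLAT, the gene of tissue plasminogen activator, which activates PDGF-C, had signals of 10.08 and 9.30 on the arrays labelled BJELM, 10.62 and 10.00 in BJEL and 10.40 and 10.25 in BJ, and passed no comparison with all arrays (-1.02 against BJ and called without BJELM replicate 1). Against BJEL 0 of the 7 rose and 0 fell, with 0 higher and 3 lower at an unadjusted p under 0.05.

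Extracellular partners and co-receptors were lower in part. Of 5 measured genes 0 rose and 2 fell in BJEL against BJ, where 2.29% of all genes fell. On the arrays labelled BJELM 0 rose and 3 fell against BJ, where 4.7% of all genes fell. A2M encodes alpha-2-macroglobulin, a plasma protein that binds PDGF, and had signals of 5.52 and 5.57 on the arrays labelled BJELM, 5.45 and 5.43 in BJEL and 8.42 and 7.65 in BJ. It fell on the arrays labelled BJELM (log2 difference -2.49, limma, adjusted p = 0.000927) and in BJEL (-2.60, limma, adjusted p = 0.00164). LRP1 encodes an endocytic receptor that binds PDGF receptor beta and takes up alpha-2-macroglobulin, and had signals of 9.38 and 8.83 on the arrays labelled BJELM, 9.51 and 9.53 in BJEL and 11.44 and 11.29 in BJ. LRP1 fell on the arrays labelled BJELM (log2 difference -2.26, limma, adjusted p = 0.000573) and in BJEL (-1.84, limma, adjusted p = 0.00206). A2M and LRP1 were low in both derived lines, as the receptor genes were. CSPG4 encodes NG2, a proteoglycan that binds PDGF-A, and had signals of 8.28 and 7.99 on the arrays labelled BJELM, 9.38 and 9.33 in BJEL and 9.40 and 9.53 in BJ. CSPG4 fell on these arrays against BJ (log2 difference -1.33, limma, adjusted p = 0.000789) and against BJEL (-1.22, limma, adjusted p = 0.00424). It was the 1 called gene of this list in the comparison with BJEL (20.0%, beside 1.76% of all genes). NRP1, another gene of the list, was called as lower on the arrays labelled BJELM against BJ without BJELM replicate 2 (-1.09). The list median was -1.33 on the arrays labelled BJELM and -0.45 in BJEL, both against BJ, and 0 of its genes were higher at an unadjusted p under 0.05 in each of the 3 comparisons.

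Of the signal proteins that dock on the activated receptors, 20 of 25 listed genes were measured. In BJEL 0 rose and 0 fell against BJ, with 5 higher and 6 lower at an unadjusted p under 0.05. On the arrays labelled BJELM 1 rose and 1 fell (5.0% each, beside 4.09% and 4.7% of all genes), and both encode regulatory subunits of PI3-kinase. PIK3R3 had signals of 8.85 and 8.95 on the arrays labelled BJELM, 7.95 and 7.64 in BJEL and 7.01 and 7.12 in BJ, and rose by 1.83 ± 0.13 against BJ (limma, adjusted p = 0.000386) and by 1.10 ± 0.13 against BJEL (limma, adjusted p = 0.00647). The call against BJEL was lost without BJEL replicate 2 (0.94), and 0 genes of the list fell in that comparison, with 5 lower at an unadjusted p under 0.05. The adaptor gene GAB1 was called as lower there without BJEL replicate 2 (-1.02) or BJELM replicate 1 (-1.004), and SOS2, the gene of an exchange factor for RAS, against BJ without BJELM replicate 1 (-1.14). PIK3R1 had signals of 9.40 and 9.31 on the arrays labelled BJELM, 9.54 and 9.40 in BJEL and 10.47 and 10.36 in BJ, and fell by 1.06 on the log2 scale against BJ (limma, adjusted p = 0.000800). In BJEL it stood at -0.94 ± 0.095 from BJ (limma, adjusted p = 0.00233), under the 2-fold minimum, which it passed without BJEL replicate 1 (-1.01). The list median was -0.24 on the arrays labelled BJELM and 0.03 in BJEL, both against BJ, and -0.10 between the arrays labelled BJELM and BJEL.

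Among phosphatases, ubiquitin ligases and other brakes on the receptors, 8 of 9 listed genes were measured. In BJEL 0 rose and 0 fell, with 3 higher and 2 lower at an unadjusted p under 0.05. Against BJ 1 rose on the arrays labelled BJELM (12.5%, beside 4.09% of all genes). This was LRIG1, a membrane protein that restrains several receptor tyrosine kinases. LRIG1 had signals of 8.75 and 8.11 on the arrays labelled BJELM, 8.27 and 7.83 in BJEL and 7.26 and 6.62 in BJ. All 4 arrays of the derived lines were above both BJ arrays, with a difference of 1.49 ± 0.30 on the arrays labelled BJELM (limma, adjusted p = 0.0128) and of 1.11 ± 0.30 in BJEL (limma, adjusted p = 0.0520). The difference in BJEL was called without either of the arrays labelled BJELM (limma, adjusted p = 0.0363) and with the replicate block (limma, adjusted p = 0.000200). Without BJ replicate 2 the difference on the arrays labelled BJELM no longer passed (1.17, limma, adjusted p = 0.0579). SOCS3, the gene of a suppressor of cytokine signaling, was called as lower on these arrays against BJ without BJELM replicate 1 (-1.03). Against BJEL 0 rose and 0 fell, with 1 higher and 3 lower at an unadjusted p under 0.05. The methods' t-test at its unadjusted p called 0 genes in every list and direction in which limma called 0. It also called 0 in some where limma called genes. Among these were LRIG1 in this list, PIK3R3 against BJEL and the early genes given below. Likewise it called 0 mural cell markers in BJEL against BJ. On the arrays labelled BJELM against BJ it called 0 keratinocyte and epithelial markers. PTPN1, the gene of a phosphatase that acts on the receptors in the endoplasmic reticulum, had signals of 9.63 to 9.95 on all arrays.

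Of the early genes that PDGF and serum induce, 15 of 16 listed were measured. In BJEL 0 rose and 0 fell against BJ, with 5 higher and 3 lower at an unadjusted p under 0.05. On the arrays labelled BJELM 1 rose and 3 fell against BJ (6.67% and 20.0%, beside 4.09% and 4.7% of all genes). Against BJEL 1 rose and 1 fell (6.67% each, beside 0.923% and 1.76% of all genes). The gene that rose was CXCL1, a chemokine gene, with signals of 9.69 and 9.12 on the arrays labelled BJELM, 7.73 and 7.43 in BJEL and 6.74 and 6.72 in BJ, by 2.68 ± 0.20 against BJ (limma, adjusted p = 0.000482) and by 1.83 ± 0.20 against BJEL (limma, adjusted p = 0.00558). EGR1, a zinc finger transcription factor gene, had signals of 9.87 and 9.97 on the arrays labelled BJELM, 11.49 and 11.11 in BJEL and 11.25 and 10.80 in BJ. EGR1 fell on these arrays against BJ (log2 difference -1.10, limma, adjusted p = 0.00696) and against BJEL (-1.37, limma, adjusted p = 0.00969). DUSP1, a phosphatase gene for MAP kinases, fell by 1.69 against BJ (limma, adjusted p = 0.0181), and JUNB, an AP-1 subunit gene, fell by 1.03 (limma, adjusted p = 0.00828). These falls against BJ were not called without BJ replicate 1 (EGR1 -0.88, DUSP1 -1.30, JUNB -0.83). Without BJELM replicate 2 DUSP1 (-1.36) and JUNB (-0.89) were not called. Such fits had no replicate block. For DUSP1 and JUNB replicate 1 was above replicate 2 in every line, so leaving out 1 array also shifts the difference between lines. DUSP1 had signals of 10.30 and 9.64 on the arrays labelled BJELM and 12.06 and 11.27 in BJ. The fall of EGR1 against BJEL was not called without BJEL replicate 1 (-1.19, limma, adjusted p = 0.0571). MYC, which is on this list, was called as lower against BJEL without BJELM replicate 1 (-1.27, limma, adjusted p = 0.00947). DUSP1 was called against BJEL with the replicate block (-1.16, limma, adjusted p = 0.000218).

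**Figure D5:**
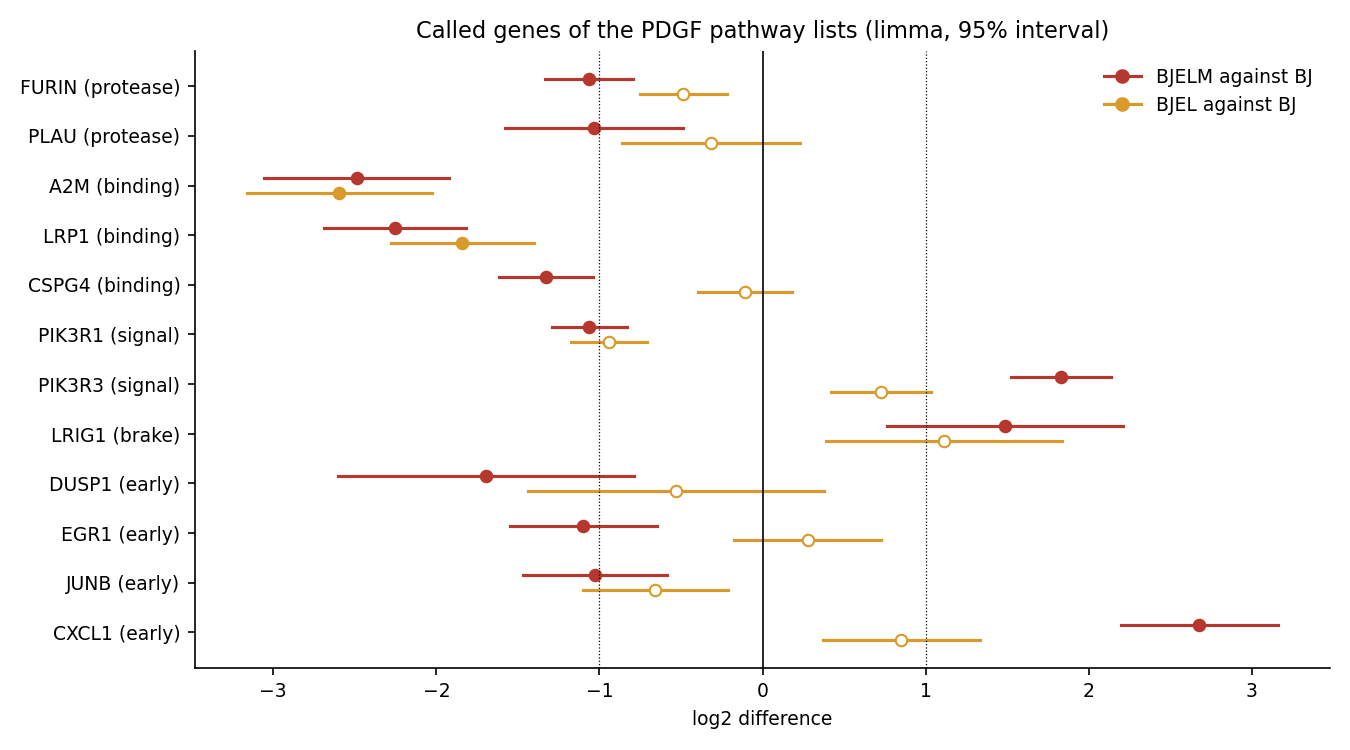
Log2 difference (horizontal axis) of the called genes of the PDGF pathway lists (vertical axis) on the arrays labelled BJELM and in BJEL, both against BJ, with limma's 95% interval, where filled points are called and dotted lines mark a 2-fold change. A2M and LRP1 are called in both, and CXCL1, PIK3R3 and LRIG1 are the genes called as higher on the arrays labelled BJELM.

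The receptor genes fell beside other genes of fibroblasts. Of the 12 fibroblast markers 0 rose and 7 fell in BJEL against BJ (58.3%, beside 2.29% of all genes). On the arrays labelled BJELM 0 rose and 9 fell against BJ (75.0%, beside 4.7% of all genes). Between the arrays labelled BJELM and BJEL 0 rose and 0 fell, with 1 higher and 3 lower there at an unadjusted p under 0.05. In that comparison PRRX1, a homeobox gene, was called as higher without BJEL replicate 2 (1.08) or BJELM replicate 2 (1.07), with quantile normalization (1.05) or median centring (1.02), and DCN as lower without BJELM replicate 1 (-1.79). The summed linear signal of the 12 was 22600 to 27800 on the arrays labelled BJELM, 25800 to 26500 in BJEL and 50500 to 53900 in BJ, and none was at 0. Against BJ 0 of the 12 were higher at an unadjusted p under 0.05 in each derived line. FAP, a protease gene of activated fibroblasts, fell on the arrays labelled BJELM (log2 difference -2.96, limma, adjusted p = 0.000739) and in BJEL (-3.45, limma, adjusted p = 0.00106). DCN, which encodes the matrix proteoglycan decorin, had signals of 6.98 and 5.40 on the arrays labelled BJELM, 7.39 and 7.0 in BJEL and 10.26 and 10.15 in BJ. DCN fell on the arrays labelled BJELM (log2 difference -4.02, limma, adjusted p = 0.00188) and in BJEL (-3.01, limma, adjusted p = 0.00921), the second without a call when BJ replicate 1 (-2.96, limma, adjusted p = 0.0586) or BJEL replicate 2 (-2.82, limma, adjusted p = 0.0531) was left out. LUM, the gene of lumican, fell on the arrays labelled BJELM (log2 difference -1.94, limma, adjusted p = 0.00235) and in BJEL (-2.17, limma, adjusted p = 0.00306). In BJEL COL1A2 lost its call without BJ replicate 1 (-1.51), BJEL replicate 1 (-1.83) or BJEL replicate 2 (-1.59). THY1 gained one there without BJ replicate 2 (-1.01) or BJEL replicate 2 (-1.04), and COL3A1 with quantile normalization (-1.06). On the arrays labelled BJELM COL3A1 lost its call against BJ without BJ replicate 1 (-1.23) or BJELM replicate 2 (-0.92), and PRRX1 without BJELM replicate 2 (-0.97). The part of the other fibroblast genes in the values of PDGFRA and PDGFRB was not tested.

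PDGFRB and CSPG4 are also genes of mural cells, and 10 mural cell markers were read for that reason. Their summed linear signal was 2260 to 3620 on the arrays labelled BJELM, 3140 to 3350 in BJEL and 5010 to 9580 in BJ, with 6 of 10 at or above the median gene level and none at 0. In BJEL 0 rose and 2 fell against BJ (20.0%, beside 2.29% of all genes). These were ACTA2, the gene of smooth muscle actin (-2.84, limma, adjusted p = 0.0240), and NOTCH3, the gene of a Notch receptor (-1.49, limma, adjusted p = 0.00595). Against BJ 0 rose and 3 fell on the arrays labelled BJELM (30.0%, beside 4.7% of all genes). These were ABCC9, the gene of a potassium channel subunit (-1.69), CSPG4 (-1.33) and NOTCH3 (-1.28). Against BJEL only CSPG4 fell among the 10 (10.0%, beside 1.76% of all genes), and 0 of the 10 were higher at an unadjusted p under 0.05 in each comparison. ACTA2 had signals of 10.46 and 9.07 on the arrays labelled BJELM, 9.10 and 8.65 in BJEL and 12.46 and 10.98 in BJ, and lost its call without BJ replicate 1 (-2.11, limma, adjusted p = 0.102), without BJEL replicate 1 (-3.07, limma, adjusted p = 0.0907) or without BJEL replicate 2 (-2.62, limma, adjusted p = 0.108). NOTCH3 lost its call on the arrays labelled BJELM without BJ replicate 1 (-0.96), which left 2 genes. The count on these arrays against BJ was 5 without BJ replicate 2 or BJELM replicate 1, where ACTA2 (-2.69 and -2.65) and CNN1, the gene of calponin 1 (-1.29 and -1.25), were also called. With the replicate block ACTA2 was called there too (-1.96, limma, adjusted p = 0.000515). Lists for other cell types that a foreskin culture could hold were read too, and in each list no marker was at 0. Endothelial markers summed to 523 to 540 on the arrays labelled BJELM, 480 to 487 in BJEL and 528 to 550 in BJ, with 0 of 8 at or above the median gene level, and 0 were called in each comparison. At an unadjusted p under 0.05, 1 was higher and 1 lower on the arrays labelled BJELM against BJ, 0 were higher and 2 lower in BJEL against BJ, and 2 were higher and 0 lower on the arrays labelled BJELM against BJEL. Keratinocyte and epithelial markers summed to 3120 to 4400 on the arrays labelled BJELM, 3120 to 4330 in BJEL and 5890 to 8350 in BJ, with 4 of 8 at or above the median gene level. Of these 0 rose, and KRT19 (-1.65) and DSP (-1.70), genes of a keratin and of desmoplakin, fell on the arrays labelled BJELM against BJ (25.0%, beside 4.7% of all genes). Without BJ replicate 1 neither was called (KRT19 -1.31, DSP -1.42), and KRT19 was not called without BJELM replicate 2 (-1.22). In BJEL against BJ KRT19 was also called (-1.31) without either of the arrays labelled BJELM (limma, adjusted p = 0.0364) or with the replicate block (limma, adjusted p = 0.000122). On the arrays labelled BJELM against BJEL DSP was called without BJEL replicate 2 (-1.57) or with the replicate block (-1.13, limma, adjusted p = 0.00172). Leukocyte markers summed to 1670 on each array labelled BJELM, 2970 to 3050 in BJEL and 2870 to 3130 in BJ. Of 7 markers CD68, a lysosomal protein gene, fell on the arrays labelled BJELM against BJ (-1.04, and under the 2-fold minimum at -0.96 without BJ replicate 2) and against BJEL (-1.08). That is 14.3% of the list in each comparison, beside 4.7% and 1.76% of all genes. Melanocyte markers summed to 461 to 503 on the arrays labelled BJELM, 639 to 693 in BJEL and 1030 to 1040 in BJ. Of 6 markers MITF, one of the genes nearest to PDGFC, fell on the arrays labelled BJELM against BJ (-1.68), that is 16.7% of the list beside 4.7% of all genes. KRT19, DSP, CD68, CNN1, EPHB4, DDR2, KDR, MUSK, NRP1, ROR1, ROR2, GAB1, SOS2, SOCS3, PRRX1, COL3A1 and THY1 were named after their values were seen. The part of these lists in the values of the PDGF genes was not tested.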

How the data were processed

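Total RNA of the 3 cell lines was hybridized to Affymetrix Gene 1.0 ST arrays, whose probes lie all along the transcripts. The deposited values are log2 signals to which the authors had brought the scans with RMA (background correction, quantile normalization and 1 summary per probe set), in Expression Console 1.3.1 as the submitters' notes on processing state. Of 33297 probe sets, 19460 had 1 gene symbol, 1754 had several (not used, among them one that holds PDGFRB with EBF1) and 12083 were not listed in the platform annotation. A gene was read from its single-symbol probe set with the highest mean, which gave 18417 genes, and 18389 matched RefSeq (GRCh38.p14). The array annotation's build is not given in the sources used here, so its coordinates were not used, and promoter windows are those of RefSeq. PDGFB and PDGFC are not shown by sequence.

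One limma 3.58.1 fit (R 4.3.3) had a mean per cell line and no low-signal filter, with 3 residual degrees of freedom and 3.13 from the prior. P-values were adjusted by Benjamini-Hochberg over all genes of a comparison, and calls needed an adjusted p under 0.05 and a 2-fold change. The methods' t-test for unequal variances was run in its plain form. Alternatives left out each array in turn (a lone array was assumed to vary like the others), fitted only 2 groups or the replicate block, changed normalization, prior, dim-gene filter, probe sets or thresholds, or used the methods' t-test. Arrays of the same replicate number deviated together from the means of their lines (r = 0.45 to 0.55 across genes, 3 pairs of lines), so the numbers were taken to pair the arrays, although no source says what a number shares. The fit above and the fits without 1 array have no block, so the latter also carry any shift between replicate numbers. Values with the block are given where they change the call of a listed gene or, for a member, the side of the adjusted p. The members and gene lists were chosen with earlier results of these data known. Genes named besides the members were up to 4 called genes per list and comparison with the largest change, or 2 with the highest mean where none was called, the 3 nearest profiles per called member, the neighbours and other class III receptors, MYC and TERT. The number of arrays limits the precision. Python 3.11.15 was used for the summaries.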

Additional observations from a re-analysis of the deposited data

How the results depend on the processing

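With any single array left out, no member lost its call, and the log2 difference of PDGFRA from BJ was -3.46 to -3.30 on the arrays labelled BJELM and -3.64 to -3.51 in BJEL over these fits. Of the called member differences, 97 values under the alternatives kept direction and call, and 9 lost the call, all under the methods' t-test, which after Benjamini-Hochberg adjustment called 0 members and 0 pathway genes as fallen or risen in every comparison. At its unadjusted p the methods' t-test called 2 fallen members on the arrays labelled BJELM against BJ (PDGFRA and PDGFC) and 1 in BJEL against BJ (PDGFRA). It called PDGFRB in neither comparison, and it did not call PDGFA. Among the 106 pathway genes it called 1 risen and 7 fallen on the arrays labelled BJELM against BJ and 0 risen and 3 fallen against BJEL. Restricting the test to genes at or above the median level left 3 members and 1 fallen member in BJEL, since PDGFRA was below that level. Without the fold minimum 1 member had risen and 1 had fallen on the arrays labelled BJELM against BJEL (PDGFD 0.71 and PDGFC -0.91), and the pathway counts were 9 risen and 17 fallen in BJEL against BJ, 13 risen and 38 fallen on the arrays labelled BJELM against BJ, and 15 fallen against BJEL. Values of uncalled members kept direction and call in 255 cases, and 2 changed sign, PDGFB in BJEL against BJ with quantile normalization (0.0308) and PDGFRL on the arrays labelled BJELM against BJEL, which ranged from -0.40 to 0.10 with 1 array left out.

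With 1 array left out, the pathway genes risen numbered 0 to 1 in BJEL against BJ, and 1 to 2 on the arrays labelled BJELM against BJEL (1 without BJEL replicate 2), and those fallen 8 to 17 on the arrays labelled BJELM against BJ (8 without BJ replicate 1) and 3 to 8 against BJEL (3 without BJEL replicate 1, 8 without BJEL replicate 2 or BJELM replicate 1). The main count of 0 pathway genes risen in BJEL was 1 with only the 2 groups compared, the replicate block, quantile normalization, median centring, an intensity trend with a robust prior, a mean at or above the median level, or a group mean of at least 6. With the replicate block the members fallen were again 4 on the arrays labelled BJELM and 2 in BJEL against BJ, and 0 between the arrays labelled BJELM and BJEL. The block changed no call of a member.

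Over all genes, the methods' t-test at unadjusted p called 231 risen and 234 fallen in BJEL against BJ, 424 and 456 on the arrays labelled BJELM against BJ, and 102 and 129 against BJEL, and 0 after adjustment. Without the fold minimum these counts were 1915 and 1313, 2790 and 2405, and 835 and 1157. The main limit is that each line has 2 arrays. The MYC signal does not show the added MYC of the label BJELM, and whether its probes read the fusion transcript is not known. Array signals do not measure protein or receptor activity.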
